A study of Mus musculus with 4 samples.

Results

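Loss of Btg1 was examined in mouse fetal liver progenitors that carried the leukemia fusion ETV6-RUNX1, as the difference between 2 arrays. The log2 level of each gene in wild-type cells with ETV6-RUNX1 was subtracted from that in Btg1-/- cells with ETV6-RUNX1. All genes at a level of 6 or more on at least 1 of these arrays were compared, which were 6106 of the 18113 genes of the array table. The cells were c-Kit-positive, Ter119-negative progenitors taken with magnetic beads from C57BL6/J embryos at day 13.5, wild type or Btg1-/-. They were expanded for 24 hours, infected with a control retrovirus or with one coding for ETV6-RUNX1, and 48 hours later grown for 12 days. The 2 genotypes and 2 viruses gave 4 cultures, and the Btg1-/- one with ETV6-RUNX1 is called the double-lesion culture below. All 4 received FLT3 ligand at 10 ng/ml, interleukin 7 at 20 ng/ml and stem cell factor at 100 ng/ml. Each culture gave 1 Illumina array, so every difference below describes a pair of arrays, has no replicate check and carries no p-value. Pooling of embryos, the deleted part of Btg1 and the promoter that drove the fusion are not stated in the labels. The amount of ETV6-RUNX1 in the 2 cultures given it was not tested.

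BTG1 belongs to the BTG/TOB family of antiproliferative proteins. It has no enzyme activity of its own and acts as an adaptor, bringing the CCR4-NOT deadenylase to messenger RNAs and binding the arginine methyltransferase PRMT1. Deletions of its gene recur in B-cell precursor leukemia of children, where the ETV6-RUNX1 translocation is also common. The series title names BCL6 as a link between BTG1 loss and this fusion. BCL6 is a transcriptional repressor that protects B cells during receptor rearrangement and in the germinal center, and its own transcription in precursor B cells is held down by interleukin 7 signaling through STAT5.

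Levels are the authors' normalized log2 values, and levels of different genes are not set against each other. Values below 6 were treated as lying at 6, the floor, so that a difference with 1 array below it is a bound. The word spread means the robust standard deviation of the differences among a gene and the 250 genes on either side of it in level. It ranged from 0.196 to 0.535. It contains any true differences of the neighbouring genes, and it says nothing of how far separate cultures vary. The number of genes at or above the floor was 5869 to 5900 per array. Over the compared genes the robust standard deviation of the differences was 0.310 with ETV6-RUNX1 and 0.177 with control virus, so the arrays of the pair with ETV6-RUNX1 lay further apart. Kit, the gene of the marker used for isolation, was not analysed here. The B-cell markers Vpreb1 and Cd79b were well above the floor on all 4 arrays, and so were the mast cell markers Cpa3, Mcpt4 and Cma1. Hba-a1 and Klf1 (erythroid) and Cd3e and Cd4 (T cell) lay below it on all 4. Other members of those lists lay above it on all 4, namely Hbb-b1 and Tfrc (erythroid) and Lat, Prf1, Lck and Thy1 (T and NK cell).

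Btg1 itself had levels of 11.87 and 11.97 in wild type, with control virus and with ETV6-RUNX1. In Btg1-/- cells it had levels of 9.02 and 9.97. Both knockout arrays lay below both wild-type arrays, as their labels say, and with ETV6-RUNX1 the log2 difference was -2.002 (4.01-fold lower, spread 0.261). Since the deleted part of the gene and the place of the probe are not given in the sources used here, the remaining signal cannot be read as intact transcript. Of the 10 compared genes on either side of Btg1 in chromosome order, none differed by 2-fold. The differences ran from -0.77 for Socs2 to 0.65 for Phlda1, and the other 18 neighbours lay between -0.40 and 0.43. Among partners of BTG1, the CCR4-NOT subunit Cnot9 differed by -0.39 and Cnot11 by 0.33. Cnot7 and Cnot8, the deadenylases that BTG proteins bind, lay below the floor on all 4 arrays, as did Btg2 and Btg3.

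Of the 6106 compared genes, 56 were at least 2-fold lower in Btg1-/- cells with ETV6-RUNX1 (0.917%) and 41 at least 2-fold higher (0.671%), 97 in all (1.59%). Genes were counted by row, so that Ifi27, which has 2 rows, counts as 2 of the 41. The fold was a bound for 9 genes in each direction. The median difference was 0.00, with 25th and 75th percentiles of -0.21 and 0.21. Over all compared genes 50.4% lay above 0 and 49.4% below, and these are the shares to set beside every list count below. Where the mean level of the 2 arrays lay between 6 and 8, genes at least 2-fold higher and lower were about as many: 14 against 15 of 1294 genes between 6 and 7, and 17 against 19 of 1155 between 7 and 8. In the band from 10 to 11, 5 of 685 genes were lower and none higher. Between 12 and 15 only H19, the imprinted noncoding RNA, passed 2-fold, at 13.48 in wild type and 12.41 in Btg1-/- cells (-1.06). Genes nearest the threshold on its far side were Rasal1 (1.00), Mpst (1.00), Asb2 (1.01) and Dctpp1 (-1.01), and those just short of it were Qtrt1 (1.995-fold), Xlr4a (1.994-fold), Pwp1 (1.985-fold) and Yrdc (1.985-fold). At the floor, Sephs1 entered with levels of 5.780 and 6.001, and Rcc2, with 5.998 and 5.741, did not.

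**Figure D1:**
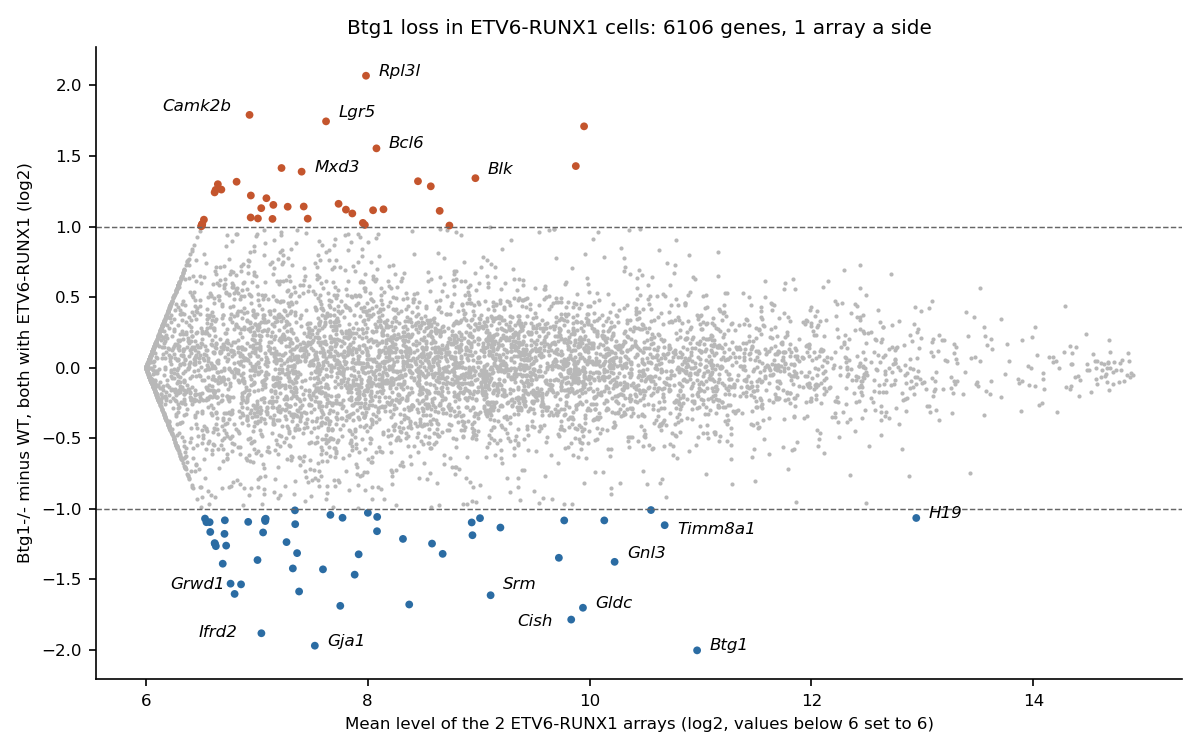
Each point is 1 of 6106 genes, placed by the mean log2 level of the 2 arrays with ETV6-RUNX1 (x axis, values below 6 set to 6) and by the log2 difference Btg1-/- minus wild type (y axis). Blue points are the 56 genes at least 2-fold lower and orange points the 41 at least 2-fold higher, with dashed lines at 2-fold. At levels of 10 and above the coloured points lie below 0.

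Ribosome biogenesis factors made up the clearest group among the lower genes. These nucleolar proteins transcribe, cut, modify and fold ribosomal RNA and load ribosomal proteins onto it, and many are known targets of MYC. Of 73 measured factors (96 on the array), 66 lay below 0, against 49.4% of all compared genes. At least 1.5-fold lower were 38, against 5.06% of all genes, and at least 2-fold lower were 13, against 0.917%. None was 2-fold higher, and the median difference was -0.59 against 0.00 over all genes. Btg1-/- with ETV6-RUNX1 was the lowest of the 4 arrays for 65 of the 73, against 33.5% of all genes. With control virus the median of the same factors was 0.08.

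In the large ribosomal subunit pathway, Rpf2, which helps dock the small ribonucleoprotein of the central protuberance, had levels of 7.33 and 7.53 in wild type, without and with the fusion, and of 7.68 in Btg1-/- with control virus. In the double-lesion culture it stood at 5.92, below the floor, so that it was at least 2.89-fold lower. Grwd1, a WD-repeat assembly factor, stood at 7.64, 7.63 and 7.83 on the first 3 arrays in that order, which is kept below, and at 6.09 on the last (2.90-fold lower than in wild type with ETV6-RUNX1). For both genes the other 3 arrays lay close together and the double-lesion array lay apart. Pes1, the scaffold of the PeBoW complex, had levels of 8.86, 8.92 and 8.86 against 7.71 (-1.21, spread 0.307), and its partner Bop1 differed by -0.94. Nop2, an RNA methyltransferase of the large subunit, differed by -1.08 and Rbm28 by -1.09. Gnl3, which codes for nucleostemin, differed by -1.38 and the nucleolar proteins Rrp1b and Mybbp1a were at least 2.37-fold and 2.24-fold lower.

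Several factors of the small subunit pathway were lower in the double-lesion culture too. Wdr75, of the small subunit processome, had levels of 8.63, 8.58 and 8.95 on the first 3 arrays and 7.26 on the last (-1.32). Pno1, which binds the precursor of the small subunit RNA, had 10.73, 10.67 and 10.88 against 9.59 (-1.08, spread 0.264), and Rcl1 9.56, 9.49 and 9.73 against 8.39 (-1.10). Again the other 3 arrays lay within 0.37 of each other for all 3 genes. Rrp12, which is needed for export of the subunits, differed by -1.32, Nop14 by -0.97 and Utp4 by -0.81. Among the proteins of small nucleolar ribonucleoproteins, Nhp2 of the H/ACA class differed by -1.03, while Nop56 and Nop58 of the C/D class differed by -0.97 and -0.76. The abundant nucleolar proteins Ncl (nucleolin) and Npm1 (nucleophosmin) differed by -0.85 and -0.31. Other small subunit factors differed little, with Utp6 at -0.32, Emg1 at -0.24, Tbl3 at -0.16 and Imp3 at -0.11, and Ddx52, Riok1, Ddx47 and Nop9 lay above 0. Of the 7 factors above 0, Rrp1 reached 0.59, a bound, and the other 6 lay between 0.05 and 0.23.

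Among RNA polymerase and transfer RNA factors, single genes differed more than the lists did. Cd3eap, a subunit associated with RNA polymerase I, had levels of 8.49, 8.62 and 8.77 on the first 3 arrays and 7.15 on the last (-1.47, spread 0.380). It was not on the list of polymerase I and III genes, of which 14 of 18 lay below 0 and none passed 2-fold, with a median of -0.25. Polr1a and Polr1e were the lowest of these, at -0.85 (a bound) and -0.78. Trmt61a, the catalytic subunit of a transfer RNA adenine methyltransferase, stood at 9.22, 9.21 and 9.35 against 7.54 (3.20-fold lower, spread 0.316). The other 3 arrays lay within 0.14. Mettl1, a transfer RNA guanosine methyltransferase, was at least 2.40-fold lower, and Rpp38, of ribonuclease P and MRP, at least 2.37-fold lower. Aminoacyl-tRNA synthetases lay below 0 in 23 of 26 cases with a median of -0.30 and none past 2-fold. Eef1e1, a scaffold of the multi-synthetase complex, was lower by -1.25 (9.20 in wild type, 7.96 in Btg1-/-).

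Structural ribosomal proteins differed little. Of 49 cytosolic ribosomal proteins, 33 lay below 0, with a median of -0.07 and none past 2-fold. The median with control virus was also -0.07, and the largest differences were those of Rps15a (-0.92) and Rps27a (-0.77). Many of these genes lie near the top of the range of the array and have near-identical pseudogene copies, which limits what the probes can separate. Mitochondrial ribosomal proteins lay below 0 in 58 of 68 cases with a median of -0.22, and Mrps2 passed 2-fold (7.85 in wild type, 6.84 in Btg1-/-). Among translation factors 31 of 45 lay below 0 with a median of -0.13, and Eif1a (-0.97) and Eif5a (-0.61), the factor that carries hypusine made from spermidine, were among the lowest.

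**Figure D2:**
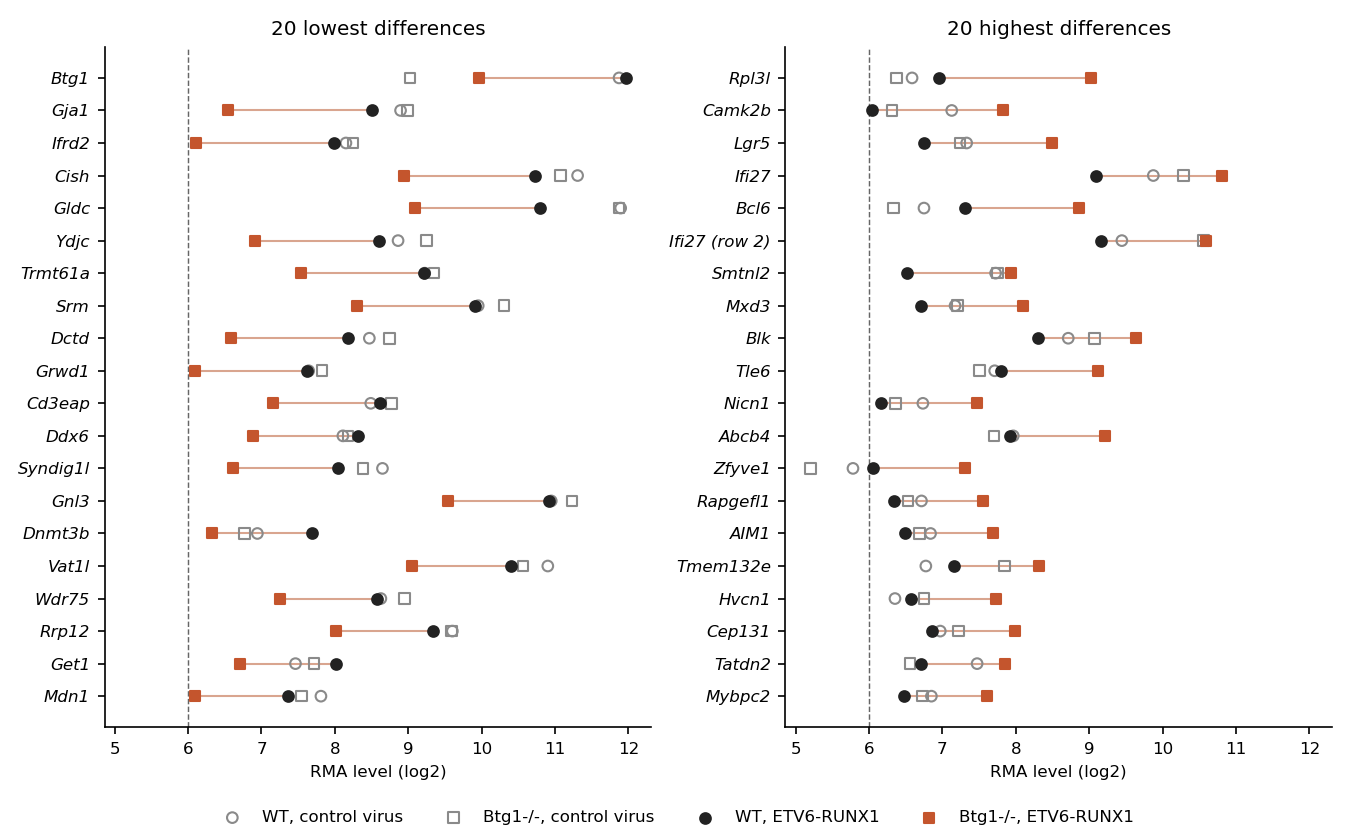
Log2 levels (x axis) on the 4 arrays of the genes with the 20 lowest (left) and 20 highest (right) differences above the floor (rows). Circles are wild type, squares Btg1-/-, open symbols control virus and filled symbols ETV6-RUNX1, with a line joining the 2 arrays compared and a dashed line at the floor of 6. On the left every filled square lies furthest to the left except that of Btg1, and on the right every filled square lies furthest to the right.

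The E-box CACGTG, a palindrome read alike on both strands, is the sequence that MYC with MAX and the opposing MXD proteins with MAX recognize, together with other basic helix-loop-helix factors. RefSeq promoters of 300 bases (250 before and 50 after the annotated start, build GRCm38.p6) were available for 45 of the 56 lower genes and 31 of the 41 higher genes. An E-box stood in 17 of the 52 promoters of lower genes (32.7%) and in 6 of the 42 of higher genes (14.3%). Over all compared genes it stood in 655 of 6071 promoters (10.8%), and over the whole table in 2349 of 32851 (7.15%). The windows below are those of 9 lower genes of ribosome and transfer RNA biology and of Apex1, the apurinic endonuclease of base excision repair, which holds 3. They are printed along the strand of the gene with the E-box in capitals.
Trmt61a: ccgccgtggagcCACGTGtggagccgggag
Grwd1: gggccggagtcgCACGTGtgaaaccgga
Rpf2: aagtaatcggtaCACGTGcattcgctaa
Cd3eap, upstream: gttggaagaaacCACGTGagcaaagttgtc
Cd3eap, near the start: accccttggatcCACGTGgtgggcagcgtt
Mettl1: agctcggctctcCACGTGgactgcgtggca
Rpp38: tcagtgcaggcgCACGTGgagcgggcgcag
Pes1: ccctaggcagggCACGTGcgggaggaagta
Nop2: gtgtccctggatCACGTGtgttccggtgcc
Pno1: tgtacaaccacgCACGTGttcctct
Apex1, upstream: gcgctccagaacCACGTGggggcggagccc
Apex1, at the start: gagccctcgaatCACGTGaccacaccaatc
Apex1, past the start: acaccaatcgccCACGTGggaacaggcaga

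On the plus strand, the window of Trmt61a lies at chr12:111678118-111678147, that of Mettl1 at chr10:127041950-127041979, that of Pes1 at chr11:3963965-3963994 and that of Nop2 at chr6:125131811-125131840. The first window of Apex1 lies at chr14:50924913-50924942, the second at chr14:50924937-50924966 and the last at chr14:50924958-50924987. On the minus strand lie those of Grwd1 (chr7:45830740-45830767), Rpf2 (chr10:40246990-40247017), Rpp38 (chr2:3332601-3332630) and Pno1 (chr11:17211540-17211564), and both of Cd3eap (chr7:19359684-19359713 upstream and chr7:19359446-19359475 near the start). Counting from the 5′ end of the 300 bases, where base 251 is the annotated start, the E-box covered bases 276 to 281 in Trmt61a and 253 to 258 in Pes1. In Grwd1 and Rpf2 it covered bases 285 to 290, and in Apex1 bases 227 to 232, 251 to 256 and 272 to 277. Most printed matches thus lay within the first 50 transcribed bases, with those of Nop2 (191 to 196) and 1 each of Cd3eap and Apex1 before the start. Apex1 had levels of 9.61, 9.54 and 9.50 on the first 3 arrays and 8.35 on the last (-1.19, spread 0.303), the other 3 lying within 0.10.

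Across bands of the difference, the E-box share was 15.9% (64 of 402 promoters) between -1 and -0.5, 11.5% (284 of 2476) from -0.5 to just below 0, and 9.44% (254 of 2691) from 0 to 0.5. It was 7.35% (30 of 408) between 0.5 and 1. Counted per gene, 16 of 45 lower genes (35.6%), 6 of 31 higher genes (19.4%) and 610 of 4763 compared genes (12.8%) had at least 1. Ribosome biogenesis factors held an E-box in 17 of 65 promoters (26.2%), and some of these are the lower genes themselves. The RUNX sequence TGTGGT stood in 15.4% of promoters of lower genes, 14.3% of higher genes and 12.8% of compared genes, on either strand. The SP1 sequence GGGCGG stood in 61.5%, 69.0% and 64.5%, and the median GC content was 57.8%, 61.2% and 60.7%. A match is a sequence in a window and does not show binding.

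**Figure D3:**
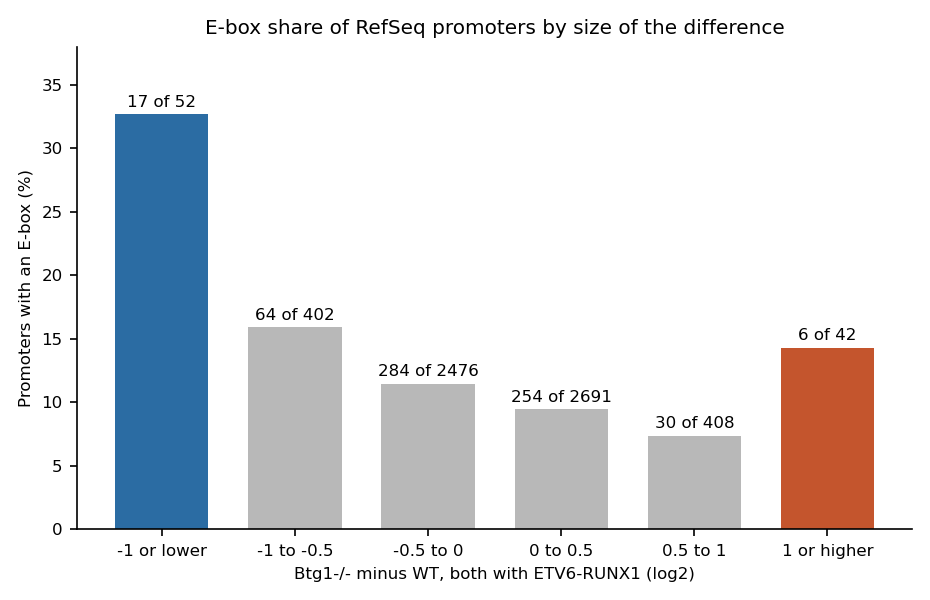
Bars give the percentage of 300-base RefSeq promoters that hold the E-box (y axis), by band of the log2 difference Btg1-/- minus wild type with ETV6-RUNX1 (x axis), with promoter counts above each bar. The share is 32.7% in the band at -1 or lower and between 7.35% and 15.9% in the others.

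Metabolic lists differed among themselves, and those of polyamines, nucleotide synthesis and one-carbon enzymes had more members below 0 than above. Srm, spermidine synthase, had levels of 9.95, 9.91 and 10.31 on the first 3 arrays and 8.30 on the last (3.06-fold lower, spread 0.301). In the same polyamine list Odc1, the rate-limiting decarboxylase, differed by -0.80, and Enoph1 and Mtap of methionine salvage by -0.84 and -0.51, with 6 of 9 members below 0. Nucleotide synthesis held 24 of 30 members below 0 (median -0.33) and 4 at least 2-fold lower, against 49.4% and 0.917% of all compared genes. Dctd, which deaminates dCMP, stood at 8.47, 8.18 and 8.74 against 6.59 (3.00-fold lower). Cad, which carries the first steps of pyrimidine synthesis, stood at 8.02, 7.64 and 8.14 against 6.47 (-1.17), and Ppat, the first step of purine synthesis, at 8.60, 8.61 and 8.81 against 7.56 (-1.06). In each case the double-lesion array was the lowest. Dctpp1 (-1.01), Ctps (-0.92) and Gart (-0.85) came next, whereas the ribonucleotide reductase subunits Rrm1 and Rrm2 differed by 0.01 and -0.16 and Tk1 by 0.33.

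Gldc, the glycine decarboxylase of the mitochondrial cleavage system, had levels of 11.89 in wild type with control virus, 10.79 in wild type with ETV6-RUNX1, 11.87 in Btg1-/- with control virus and 9.09 in Btg1-/- with ETV6-RUNX1. Here both cultures with ETV6-RUNX1 lay below both with control virus, and the difference between them was -1.70 (spread 0.266). One-carbon enzymes lay below 0 in 10 of 12 cases (median -0.42), with Mthfd1 at -0.87, Shmt1 at -0.75 (a bound) and Shmt2 at -0.67. Mitochondrial import and chaperone genes lay below 0 in 24 of 26 cases (median -0.31), with Timm8a1 at 11.24 in wild type and 10.12 in Btg1-/- (-1.12), Timm10 at -0.93 and the chaperonin Hspd1 at -0.91. Cytosolic chaperones followed, 27 of 31 below 0 (median -0.30) and none past 2-fold. Oxidative phosphorylation subunits lay below 0 in 52 of 67 cases and proteasome subunits in 25 of 31, with medians of -0.14 and -0.13 and no member past 2-fold. Glycolysis and hypoxia genes had 16 of 24 members above 0 and a median of 0.11, and cholesterol and fatty acid genes 15 of 26 and 0.06.

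**Figure D4:**
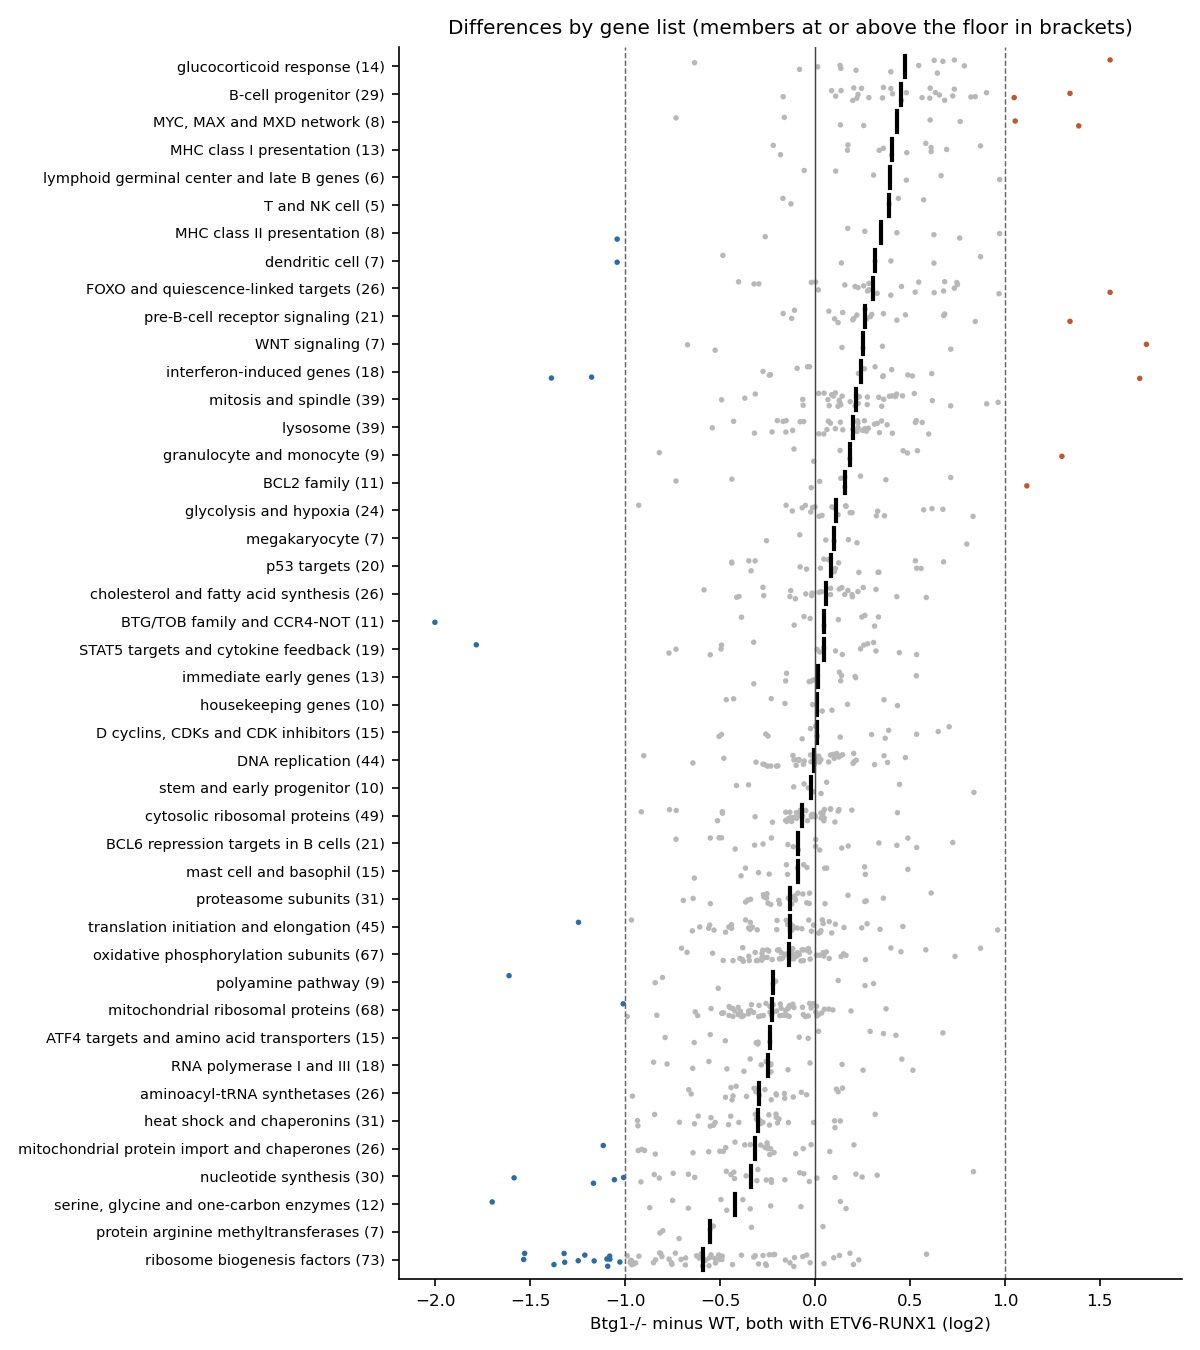
Log2 differences Btg1-/- minus wild type with ETV6-RUNX1 (x axis) for the measured members of gene lists (rows), with points for genes and a bar for the list median. Ribosome biogenesis factors have the lowest median among the lists of more than 7 members, at -0.59, and B-cell progenitor genes lie mostly above 0, at 0.46.

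MYC itself gave no measured difference, because Myc, Mycn and Mycl lay below the floor on all 4 arrays. Of the 3 measured members of the MXD family, whose proteins compete with MYC for MAX and repress at E-boxes, 2 were at least 2-fold higher, against 0.671% of all compared genes. Mxd3 had levels of 7.17, 6.71 and 7.20 on the first 3 arrays and 8.10 on the last (2.62-fold higher, spread 0.396). Mxd4 had 7.02, 6.62 and 5.95 against 7.67 (2.08-fold higher, spread 0.431). Both were highest where Btg1 loss and the fusion met, although Mxd4 exceeded wild type with control virus by less than it exceeded the other 2 arrays. Mxi1, the other measured member, had 7.92 in wild type and 8.18 in Btg1-/- with ETV6-RUNX1 (0.26), and Mxd1 lay below the floor.

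Cish, the feedback inhibitor that STAT5 induces downstream of interleukin 7 and other cytokines, had levels of 11.31, 10.73 and 11.07 on the first 3 arrays and 8.94 on the last. The double-lesion array lay below the others, 3.44-fold below wild type with ETV6-RUNX1 (spread 0.278). Socs2, of the same family, had 13.17, 13.27 and 13.18 against 12.50 (-0.77, spread 0.196). Bcl2, a survival gene, differed by -0.73, Pim3 by -0.50 and Ccnd2 by -0.49. Over the whole list of STAT5 targets and cytokine feedback genes, however, 12 of 19 lay above 0, the median was 0.05, and Cish alone passed 2-fold. The receptor chain Il7r differed by 0.73 (6.87 in wild type, 7.60 in Btg1-/-), Jak1 by 0.53 and Stat5a by 0.14. The promoter of Cish is shown because 2 matches to the STAT sequence TTCNNNGAA, in capitals, lie at its start. It covers chr9:107296409-107296708 on the plus strand in RefSeq's GRCm38.p6, and the matches cover bases 251 to 259 and 262 to 270.
Cish: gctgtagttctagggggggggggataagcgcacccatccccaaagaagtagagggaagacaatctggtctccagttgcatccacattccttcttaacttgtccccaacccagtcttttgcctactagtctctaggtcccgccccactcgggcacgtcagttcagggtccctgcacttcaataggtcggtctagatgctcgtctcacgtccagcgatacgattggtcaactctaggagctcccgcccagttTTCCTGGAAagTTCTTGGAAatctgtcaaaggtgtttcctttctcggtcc
The STAT sequence stood in 9.62% of promoters of lower genes, 9.52% of higher genes and 6.98% of compared genes. The first of the matches in Cish also holds the BCL6 sequence TTCCTNGAA, every instance of which is a STAT match by its letters. That sequence stood in 1.92% of promoters of lower genes and 1.04% of compared genes.

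Bcl6 had levels of 6.75 in wild type with control virus, 7.30 in wild type with ETV6-RUNX1, 6.33 in Btg1-/- with control virus and 8.86 in Btg1-/- with ETV6-RUNX1. The double-lesion array was the highest of the 4, 2.94-fold above wild type with ETV6-RUNX1 (spread 0.348). With control virus the Btg1-/- level was the lower one, by -0.42. RefSeq lists more than 1 start for Bcl6, and the promoter with most matches to the STAT sequence is shown, with its 3 matches in capitals. It covers chr16:23981234-23981533 on the minus strand, and the first match, at bases 83 to 91, is also a BCL6 sequence.
Bcl6: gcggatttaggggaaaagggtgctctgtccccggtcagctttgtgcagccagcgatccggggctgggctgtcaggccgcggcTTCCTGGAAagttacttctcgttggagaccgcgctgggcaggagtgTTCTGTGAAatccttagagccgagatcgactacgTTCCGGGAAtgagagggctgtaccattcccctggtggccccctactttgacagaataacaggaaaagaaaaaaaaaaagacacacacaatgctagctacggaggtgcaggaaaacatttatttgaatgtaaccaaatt
The other Bcl6 promoter has 1 STAT match and an E-box.
Genes that BCL6 is known to repress in B cells showed no common direction: 10 of 21 lay above 0 and 11 below, none passed 2-fold, and the median was -0.09. Trp53 differed by -0.42 and Ccnd2 by -0.49, but Cdkn1a differed by 0.54 and Irf4 by 0.73. Cdkn2a was lower by a bound of -0.51, and with control virus it differed by -1.07.

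Genes of B-cell progenitors were higher. Of 29 measured members of the list (32 on the array), 28 lay above 0, against 50.4% of all compared genes, and 12 were at least 1.5-fold higher, against 4.95% of all genes. The median was 0.46, and the double-lesion array was the highest of 4 for 26 members, against 34.6% of all genes. With control virus the median was -0.06. Blk, a Src-family kinase of the B lineage, had levels of 8.72, 8.30 and 9.07 on the first 3 arrays and 9.64 on the last (2.54-fold higher). Dntt, the terminal transferase that adds bases at rearranging immunoglobulin joints, lay below the floor on the first 3 arrays and at 7.05 on the last, at least 2.07-fold higher. Among the others, the Fc receptor-like gene Fcrla had 10.09, 10.33 and 10.39 against 11.23 (0.90), and the inhibitory receptor Cd22 7.84, 7.52 and 7.93 against 8.37 (0.84). Transcription factors of the lineage differed by 0.82 for Bach2, 0.73 for Irf4, 0.66 for Ikzf1 and 0.09 for Ebf1, while Pax5 lay below the floor. Among genes near the top of the scale, Vpreb1 differed by 0.20, Cd79b by 0.36 and Vpreb3 by 0.56. Vpreb2 differed by -0.17.

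Signaling genes of the pre-B-cell receptor share members with that list. Of 21 measured, 18 lay above 0, the median was 0.26 and Blk alone passed 2-fold. The adaptor Blnk differed by 0.68 (9.97 in wild type, 10.65 in Btg1-/-) and Ptpn6 by 0.43, while Syk differed by 0.12. In these bulk samples, more B-lineage cells and more B-lineage RNA per cell cannot be told apart. The summed linear level of the B-cell progenitor list was 66219 and 63428 in wild type with control virus and with ETV6-RUNX1, and 63769 and 82784 in Btg1-/-. That of 21 mast cell and basophil genes was 35586 and 85425 in wild type, and 52261 and 84702 in Btg1-/-. Such sums follow the few genes with the highest levels and say little of the others. These were Vpreb1, Vpreb3 and Cd79b in the B-cell list, and Cpa3, Cma1, Mcpt4 and Tpsb2 in the mast cell list. Gene by gene, of 15 measured mast cell genes 5 lay above 0 and 10 below, with a median of -0.09 and none past 2-fold.

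FOXO and quiescence-linked targets were mostly higher, with 22 of 26 above 0, against 50.4% of all compared genes, and a median of 0.31. Bcl6 was the member past 2-fold, where 0.671% of all compared genes were at least 2-fold higher. Pik3ip1, an inhibitor of phosphoinositide 3-kinase, had levels of 8.17, 7.91 and 8.02 on the first 3 arrays and 8.88 on the last (0.97). Sesn1 (0.68), the recombinase Rag1 (0.46) and the homing receptor Ccr7 (0.75) were also higher, while Sod2 differed by -0.40. With control virus Rag1 went the other way, from 10.79 in wild type to 9.62 in Btg1-/- cells (-1.18). Sesn1 and Ccr7 differed by -0.19 and 0.05 with control virus. The list shares Bcl6, Il7r, Rag1 and Blnk with others described here. Genes of the glucocorticoid response, some of them the same, lay above 0 in 12 of 14 cases with a median of 0.47. Nfkbia, the inhibitor of NF-kappaB, had 8.56, 8.65 and 8.40 against 9.43 (0.79), and Fkbp5, a classic target, differed by -0.63. The FOXO sequence TGTTTAC stood in 5 of 35 promoters of the FOXO list (14.3%) and in 2.40% of those of compared genes.

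Cell cycle genes did not follow the biosynthetic ones. DNA replication genes were balanced, with 20 of 44 above 0 and 24 below, a median of 0.00 after rounding and none past 2-fold. Prim1 was the lowest (-0.90) and Prim2 the highest (0.48), and the Mcm helicase genes Mcm2, Mcm5 and Mcm7 lay between -0.09 and 0.03. Mitosis and spindle genes lay above 0 in 34 of 39 cases with a median of 0.22, and none passed 2-fold. The phosphatase Cdc25b had 8.79, 8.32 and 8.51 on the first 3 arrays and 9.28 on the last (0.96), and Dlgap5 9.25, 8.84 and 9.52 against 9.74 (0.90). For 26 of the 39 the double-lesion array was the highest, against 34.6% of all compared genes. Among inhibitors of cyclin-dependent kinases, Cdkn2d differed by 0.71, Cdkn2c by 0.65 and Cdkn1a by 0.54, while Cdkn2a was lower by a bound of -0.51. Of the D cyclins, Ccnd2 differed by -0.49, Ccnd3 by 0.01 and Ccnd1 by 0.00.

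The BCL2 family had 8 of 11 members above 0. Bmf, a pro-apoptotic BH3-only member, had levels of 7.81 in wild type with control virus, 7.49 in wild type with ETV6-RUNX1, 6.77 in Btg1-/- with control virus and 8.61 in Btg1-/- with ETV6-RUNX1. The difference was 1.12 with the fusion and -1.04 without it. The anti-apoptotic Bcl2 differed by -0.73 and Bcl2l2 by 0.71, Mcl1 by 0.24 and Bax by -0.44. Targets of p53 lay above 0 in 13 of 20 cases with a median of 0.09 and none past 2-fold.

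The list of arginine methyltransferases, the enzymes among which BTG1 has its partner, also holds Clns1a, an adaptor of PRMT5. Its members lay below 0 in 6 of 7 cases with a median of -0.55 and none past 2-fold. Prmt1, that partner, had 12.79 in wild type with ETV6-RUNX1 and 12.24 in Btg1-/- with ETV6-RUNX1 (-0.55). Prmt3 differed by -0.82, Prmt6 by -0.80, Prmt7 by -0.72, Prmt5 by -0.54 and Clns1a by -0.33. Prmt2 was the member above 0, at 0.04.

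Antigen presentation genes were split. In the class II list 6 of 8 measured members (17 on the array) lay above 0, against 50.4% of all compared genes, with a median of 0.35. The highest were H2-Ob (0.97) and H2-Oa (0.76), which modulate peptide loading in B cells, and H2-Ab1 (0.63). Ciita, H2-Aa, H2-Eb1 and H2-DMa lay below the floor on all 4 arrays. Cd74, the invariant chain of the same pathway, stood at 8.75, 8.19 and 9.52 on the first 3 arrays and 7.14 on the last (-1.04), and Ifi30, a thiol reductase of the same pathway, also lay below 0 (-0.26). Class I genes lay above 0 in 11 of 13 cases (median 0.40), with their activator Nlrc5 at 0.87 and H2-T23 at 0.69. Interferon-induced genes lay on both sides, 10 of 18 above 0. Ifi27 appeared in 2 rows of the array table. The first had levels of 9.87, 9.10, 10.28 and 10.81 (1.71, spread 0.263) and the second 9.45, 9.16, 10.56 and 10.59 (1.43). In both rows the 2 Btg1-/- arrays lay above both wild-type arrays. Serpina3g, a serpin induced by interferon, was at least 2.62-fold lower, and the guanylate-binding protein Gbp6 was lower by -1.18 (7.30 in wild type, 6.12 in Btg1-/-).

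Several further genes among the lowest belong to none of the lists. Gja1, a gap junction connexin, had levels of 8.90, 8.51 and 8.99 on the first 3 arrays and 6.54 on the last (3.92-fold lower, spread 0.400). Ifrd2, whose protein sits on idle ribosomes in rabbit reticulocytes, had 8.15, 7.98 and 8.25 against 6.10 (3.68-fold lower), and Ydjc 8.86, 8.60 and 9.25 against 6.91 (3.22-fold lower). In all 3 the double-lesion array stood apart from 3 similar ones. Ddx6, a helicase of messenger RNA decay and translational repression that works with CCR4-NOT, had 8.11, 8.31 and 8.18 against 6.88 (-1.43, spread 0.402). Ccdc42, a coiled-coil protein of male germ cells, was at least 3.04-fold lower. Syndig1l (-1.42), Vat1l (-1.35), Get1 (-1.31), which inserts tail-anchored proteins into the endoplasmic reticulum, and the semaphorin Sema4a (-1.24) were also lower. The cytokine Tnf was at least 2.10-fold lower and the telomerase inhibitor Pinx1 at least 2.13-fold lower. Dnmt3b, a de novo DNA methyltransferase, differed otherwise: it was 6.94, 7.69, 6.77 and 6.33 on the 4 arrays, so that wild type with ETV6-RUNX1 was the high one. Bex4 and Tceal8, both X-linked, likewise had their highest level in wild type with ETV6-RUNX1 (7.12 and 7.62), and their lowest on a control array. Erdr1 had 10.16 and 10.31 in wild type and 9.31 and 9.23 in Btg1-/- cells, so that it was lower in both knockout cultures.

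Among the highest, Rpl3l, a muscle paralog of ribosomal protein L3, had levels of 6.59, 6.95 and 6.37 on the first 3 arrays and 9.02 on the last (4.19-fold higher, spread 0.352). Lgr5, a receptor for R-spondins that strengthens WNT signals, had 7.33, 6.75 and 7.24 against 8.50 (3.35-fold higher). Of 7 measured WNT genes (32 on the array), 5 lay above 0, Lgr5 among them, against 50.4% of all compared genes. No other passed 2-fold, and Nkd2 (-0.67) and Fzd7 (-0.53) lay below 0. Camk2b, a calcium-dependent kinase, stood at 7.13 in wild type with control virus, 6.04 in wild type with ETV6-RUNX1, 6.32 in Btg1-/- with control virus and 7.83 in Btg1-/- with ETV6-RUNX1 (3.46-fold higher). In Camk2b and in Smtnl2 (7.73, 6.52, 7.75 and 7.93) wild type with ETV6-RUNX1 was the lowest array, and the double-lesion array exceeded wild type with control virus by less. Tle6, of the Groucho co-repressor family, had 7.71, 7.79 and 7.50 against 9.11 (1.32, spread 0.325), the transporter Abcb4 7.97, 7.93 and 7.70 against 9.21 (1.29), and the adaptor Gab1 8.28, 8.09 and 7.83 against 9.21 (1.11). For these 3 the other arrays lay within 0.45 of each other. The proton channel Hvcn1, known in B cells, differed by 1.15, Rapgefl1 by 1.22, Nicn1 by 1.32, Zfyve1 by 1.26 and a row named AIM1 by 1.20. The chemokine Ccl9 lay below the floor on the first 3 arrays and at 7.30 on the last, at least 2.46-fold higher. Cep131 (1.14) and Cenpj (1.06) are centrosome genes.

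The double-lesion array was the extreme of the 4 for most of these genes. Of the 56 lower genes it was the lowest in 53 (94.6%, against 33.5% of all compared genes), the exceptions being Btg1, Bex4 and Tceal8, and of the 41 higher genes the highest in 39 (95.1%, against 34.6%), with Aph1b and a gene known by a locus name as exceptions. The members were chosen with that array in the contrast, so these shares are a description. The difference with control virus shares no array with it. There, 19 of 6097 genes were at least 2-fold lower (0.312%) and 22 at least 2-fold higher (0.361%). Of the 56 lower genes, 21 lay below 0 with control virus and 34 above, with a median of 0.09, and only Btg1 was 2-fold lower in both settings. Of the 41 higher genes, 10 lay above 0 and 27 below, with a median of -0.16. At least 2-fold higher in both settings were Tmem132e (1.16 with the fusion, 1.07 without) and the second row of Ifi27 (1.43 and 1.11).

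**Figure D5:**
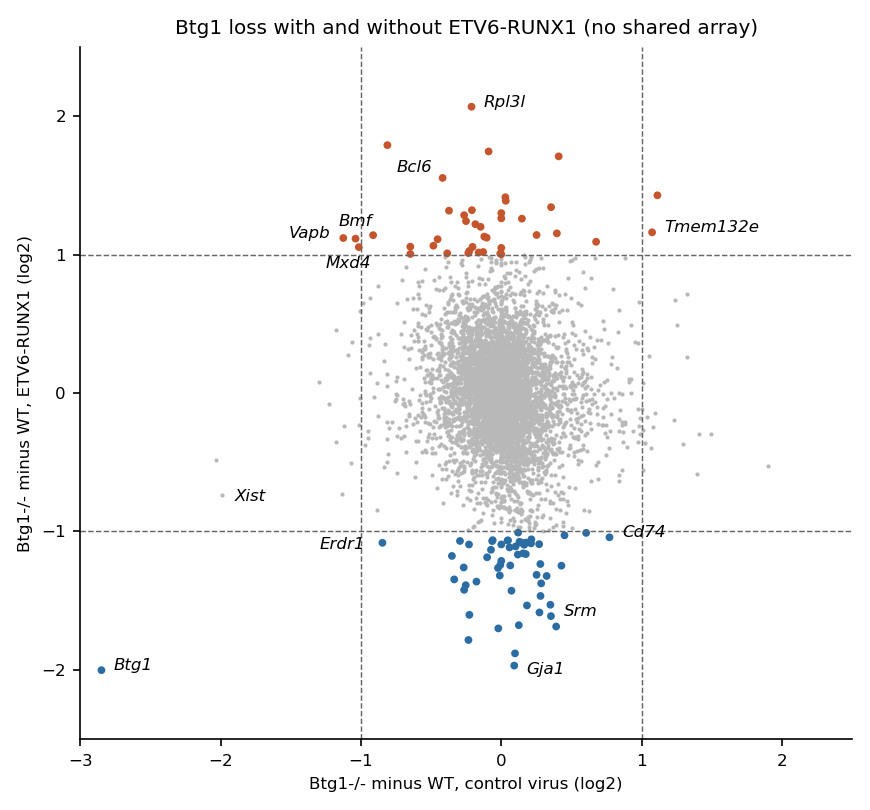
Each point is a gene, placed by its log2 difference Btg1-/- minus wild type with control virus (x axis) and with ETV6-RUNX1 (y axis), with dashed lines at 2-fold and values below 6 set to 6. Genes past 2-fold on the y axis are coloured, and most of them lie between the vertical dashed lines, Btg1 at lower left being an exception.

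Markers of other cell types were also compared. On the 2 arrays with ETV6-RUNX1 the stem and early progenitor list had 4 of 10 measured members above 0 (median -0.02), megakaryocyte genes 5 of 7 (0.10), granulocyte and monocyte genes 6 of 9 (0.18) and dendritic cell genes 5 of 7 (0.32). Hoxa9 lay below the floor on all 4 arrays. Sex-linked genes differed between the genotypes. Xist, transcribed from the inactive X chromosome of female cells, had levels of 8.996 and 8.59 in wild type and 7.01 and 7.85 in Btg1-/- cells, and the Y-linked Eif2s3y 9.43 and 9.07 in wild type and 9.93 and 10.03 in Btg1-/- cells. Xist and Eif2s3y were present on all 4 arrays. The Y-linked Kdm5d lay below the floor on both wild-type arrays and at 6.92 and 6.49 in Btg1-/- cells, with control virus and with ETV6-RUNX1. Ddx3y and Uty lay below the floor on all 4 arrays. The part of sex-linked genes in the other differences was not tested. Housekeeping genes were balanced, with 5 of 10 above 0 and a median of 0.01. As a check on the measurement, 56 pairs of rows named the same gene. Their differences had the same sign in 43 pairs, and the median distance between the rows of a pair was 0.161. Of the 10 pairs with a row past 1.5-fold, 9 had the same sign.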

How the data were processed

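Biotin-labeled cRNA from 4 cultures was hybridized to 4 arrays, 1 per group. The log2 levels deposited by the authors were made in ArrayStar, per the file headers. The submitters' processing notes name RMA. This method equalizes the distributions of the arrays, so a shift of all genes cannot be seen. The rule for genes with several probes, and the detection limit, are not given in the sources used here. Another 8 columns of raw signals matched no sample's labels and were not used. Both the number of arrays and the floor limited what could be compared.

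Values below 6 were raised to 6, and genes with at least 1 of the 2 arrays at 6 or more were compared. Called means 2-fold, with no test. Lists of 47 kinds (38 pathways, 9 cell types) had their members counted. Named genes were Btg1, Bcl6, the 20 largest differences each way above the floor, up to 10 bounds each way, list members past 2-fold or up to 5 with the largest differences, the neighbours of Btg1, and sex-linked and housekeeping genes. A few others outside this rule, such as Mxi1, Stat5a, Syk, Ebf1 and low or balanced members, were named after their values were seen. The members and lists were chosen with earlier results of these data known. Gene names matched RefSeq (GRCm38.p6) by symbol in 14304 cases and by synonym in 2888, and 921 kept the file's name. Promoters came from the same source and 9 motifs were searched on both strands. Python 3.11.15, numpy 2.4.6, pandas 2.3.3 and statsmodels 0.14.6 were used, tested on simulated data. Alternatives were the floor, the filter, the scaling and a lowess correction. The values of a few single genes are not reported here.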

Additional observations from a re-analysis of the deposited data

Results flagged for a closer look

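For 3 genes the effect of Btg1 loss went past 2-fold in opposite directions with ETV6-RUNX1 and with control virus. The effect with the fusion minus the effect without it was 2.07 for Mxd4, 2.15 for Bmf and 2.25 for Vapb on the log2 scale. Mxd4, a MAX partner that opposes MYC, differed by 1.05 with ETV6-RUNX1 and by at least 1.02 in the other direction with control virus, where Btg1-/- lay below the floor at 5.95. Bmf differed by 1.12 and -1.04. Vapb, a membrane protein of endoplasmic reticulum contact sites, had levels of 8.12, 7.24, 6.997 and 8.36 on the 4 arrays and differed by 1.12 and -1.13. Each group had 1 array, so the difference between the 2 effects was not tested.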

How the results depend on the processing

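No paired analysis was possible because each group had 1 array and no residual degree of freedom. The numbers of genes at least 2-fold higher and of genes at least 2-fold lower depended on the floor. With a floor of 5 they were 80 and 94, with a floor of 7 they were 18 and 32, and with no filter and no floor they were 696 and 708. The floor sets how many genes near background can pass. With the added condition of 3 times the spread, chosen after seeing the data, 17 were higher and 36 lower. Under the other settings (genes above the floor on both or on all 4 arrays, an equal 75th percentile, an equal median, a lowess correction) 30 to 42 were higher and 46 to 57 lower. The median of every list kept its direction, or moved by less than the spread of its members, under all settings run, except T and NK cell genes, whose 0.39 became -0.13 at a floor of 5 and -0.17 when no floor was set. Of the 97 genes past 2-fold, 42 moved by more than their spread with a floor of 7. None changed sign under any setting run. Distances to the floor limit the size of differences for genes of low level, and 1 array per group leaves the variation between cultures unmeasured.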

Other observations

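Lysosomal genes lay above 0 in 28 of 39 cases with a median of 0.20 and none past 2-fold. For 26 of the 39 the array of Btg1-/- cells with ETV6-RUNX1 was the highest of the 4, against 34.6% of all compared genes. The lysosomal calcium channel Mcoln1 was higher by a bound of 0.60, the transcription factor Tfe3, which controls lysosomal genes, by 0.56, and progranulin (Grn) by 0.53. Gusb, a lysosomal hydrolase, differed by -0.43. Targets of ATF4 and amino acid transporters lay below 0 in 10 of 15 cases with a median of -0.24. Slc1a4 differed by -0.79 and Slc3a2, the chain shared by several transporters, by -0.64, but Ddit4 differed by 0.67 and Ddit3 by 0.43. Immediate early genes were balanced, with 7 of 13 above 0 and a median of 0.01.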
